A study of Mus musculus with 4 samples.

Results

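The genes described here are 10 genes of hepatic bile acid synthesis and of its feedback through the bile acid receptor FXR: Cyp7a1, Cyp8b1, Cyp27a1, Cyp7b1, Nr1h4, Nr0b2, Baat, Slc27a5, Slc10a1 and Abcb11. They were taken as every probe whose deposited gene symbol equals one of these names, a rule that reads no measured value, although the genes were chosen with earlier results of these data known. This gave 12 of the 41174 probes on the array, for 10 of the 20666 genes named here. Cyp7a1 and Baat had 2 probes each and the other 8 genes had 1. All 12 probes were among the 39080 kept for testing, all were well above background in both channels on all 4 arrays, and 0 were saturated.

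Liver RNA of 4 Wrn mutant males was hybridised together with that of 4 wild-type males to 4 Agilent arrays of the mouse genome, which read a dye for each animal. The mutants were C57Bl/6 mice aged 3 months that had drunk 0.4% vitamin C from weaning, and the wild types were untreated C57Bl/6 mice of that age. All animals were on a reversed light-dark cycle with free access to food, and the labels name the allele only as Wrn mutant, a change in the gene of a helicase of the RecQ family. An array held a mutant in Cy5 and a wild type in Cy3, described by the labels as biological replicates, all on 1 slide with 1 scan time. No array had the dyes swapped, and untreated mutants and treated wild types were not analysed here, so the effects of genotype, vitamin C and dye cannot be told apart in any ratio. Signals well above background were found for 82.5% and 84.2% of probes in the 2 channels of array 1, and for 94.4% to 96.1% in those of the other arrays. The 3 kept Wrn probes had log2 ratios of 0.41 (limma adjusted p = 0.0118), 0.00 and -0.07, which check no label, since the labels do not say which part of the gene is changed. In bulk liver, fewer cells of a type and less RNA per cell cannot be told apart either.

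Hepatocytes turn cholesterol into bile acids by a classical route that starts with Cyp7a1 and by an alternative route that starts with Cyp27a1 and continues with Cyp7b1, while Cyp8b1 sets the share of cholic acid. Bile acids are conjugated to taurine or glycine by Slc27a5 and Baat, pumped into bile by Abcb11 and taken back from portal blood by Slc10a1. FXR, encoded by Nr1h4, is a nuclear receptor that binds bile acids and induces Nr0b2 (SHP), a corepressor of Cyp7a1 and Cyp8b1, as well as Abcb11.

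The probes are 60-base sequences of the sense strand, and some are printed below from the authors' deposited table. Their sequences were not related to any ratio. Where a probe may lie in an untranslated region only 30 bases are shown. The 2 Cyp7a1 probes read separate stretches of the transcript, probe 1 (A_52_P84027) with a stop codon in every forward frame and probe 2 (A_51_P290981) with 1 open frame. In the Cyp7b1 probe (A_51_P461429) the capitals mark AATAAA, the letters of the polyadenylation hexamer. They were looked for in this probe only, and whether they serve as a polyadenylation signal was not tested. The other lines are the beginning of the Cyp8b1 probe (A_51_P266618) and the whole Slc27a5 probe (A_51_P289742).
Cyp7a1 probe 1, first 30 bases: ttgtttttaaaacaagttttatgactccct
Cyp7a1 probe 2: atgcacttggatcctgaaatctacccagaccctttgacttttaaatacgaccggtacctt
Cyp8b1, first 30 bases: aaacctggaaaaagacggcataagctgttg
Cyp7b1, last 30 bases: tcacaaaacctgtcataaAATAAAgcagtg
Slc27a5: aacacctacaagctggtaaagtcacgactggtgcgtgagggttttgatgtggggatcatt

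Promoter sequence from RefSeq (assembly GRCm38.p6) was matched by symbol for 6 of the 10 genes, as 7 start sites, and the 250 bases before each start were searched on both strands for letters known to be read by 3 regulators of this pathway. Cyp7a1, Cyp7b1, Baat and Slc27a5 were not matched. The FXR element was searched as AGGTCA followed after 1 base by its inverted copy TGACCT, the LRH-1 element as TCAAGG and the HNF4A element as CAAAGTCCA. The 3 motifs were searched independently, and their matches do not overlap, although the windows shown for Nr0b2 do. The windows with a match are shown with 24 bases on either side, written 5′ to 3′ on the gene's strand, and capitals mark the matched letters. With 1 mismatch allowed, the FXR element was found in the Abcb11 promoter at -63 to -51 relative to the start, and in 0.0791% of 32851 mouse promoters (exact copies in 0.00609%). TCAAGG was found at 2 positions of the Nr0b2 promoter and in 12.5% of promoters, and CAAAGTCCA in the Cyp8b1 promoter and in 0.384%. Each of these 2 matched 1 of the 7 member start sites, as did the FXR element with 1 mismatch. The exact FXR element matched 0 of the 7, and a mismatch was allowed for the FXR element only. A match describes letters only, and binding was not measured in these livers.
Abcb11, chr2:69342643-69342703, minus strand: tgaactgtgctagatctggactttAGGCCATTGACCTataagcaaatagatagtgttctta
Nr0b2, chr4:133553284-133553337, plus strand: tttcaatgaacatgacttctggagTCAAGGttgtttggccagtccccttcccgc
Nr0b2, chr4:133553317-133553370, plus strand: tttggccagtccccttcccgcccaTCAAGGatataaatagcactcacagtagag
Cyp8b1, chr9:121916340-121916396, minus strand: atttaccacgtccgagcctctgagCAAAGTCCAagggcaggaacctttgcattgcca

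The comparison asked which of these genes differed between the livers of vitamin C-treated Wrn mutants and wild types. Cyp7b1, the oxysterol 7-alpha-hydroxylase of the alternative route, was 1.97-fold lower in the mutant. Cyp8b1, the sterol 12-alpha-hydroxylase, was 1.25-fold higher and Slc27a5, the bile acid-CoA ligase, was 1.14-fold higher. The other 9 probes, including both for Cyp7a1 and those for Nr1h4 and Nr0b2, did not pass the test, which was limma with Benjamini-Hochberg adjustment over all kept probes at an adjusted p under 0.05. The 3 called probes are 25% of the 12, against 13.0% of all kept probes and 22.0% of the 3908 probes above the 90th percentile of brightness, where 9 of the 12 lie. Higher calls made up 2 of the 12 against 6.19% of all kept probes, and lower calls 1 of the 12 against 6.79%. Each of the 3 calls was lost when some single array was left out, as given below for each gene.

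**Figure D1:**
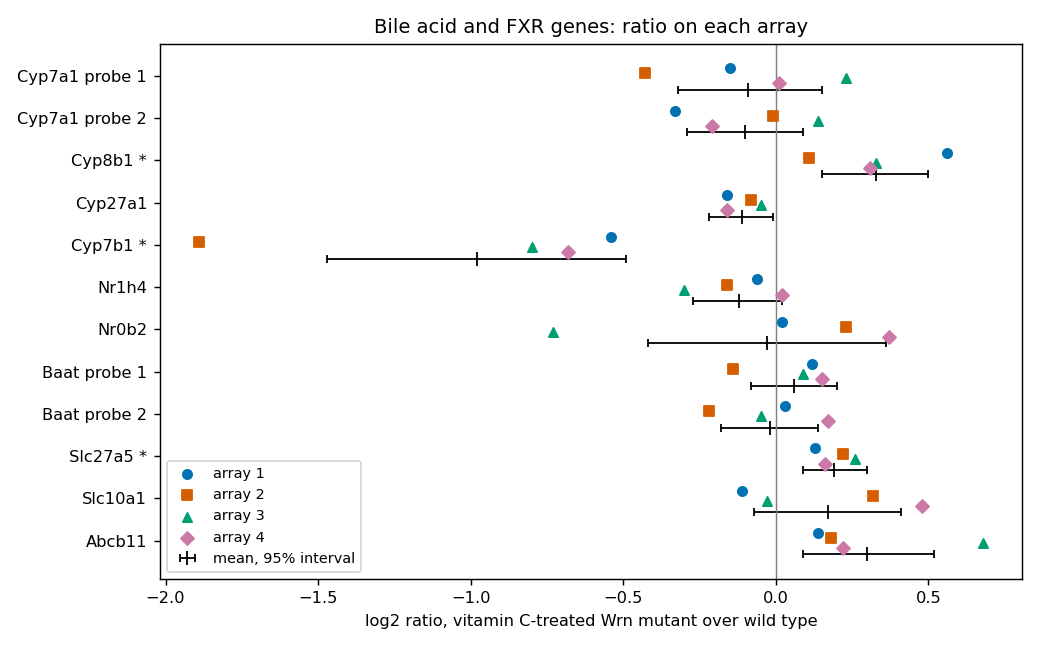
Log2 ratio of vitamin C-treated mutant over wild type for each of the 12 probes on each of the 4 arrays (coloured symbols), with the mean and its 95% interval in black beneath, and an asterisk for an adjusted p under 0.05. Cyp7b1 lies below 0 on every array, from -1.89 to -0.54, while Nr0b2 runs from -0.73 to 0.37.

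Ratios are given as log2 of the treated mutant over its wild type, with the SD of 4 arrays and the 95% interval of the mean from limma. Levels are log2 intensity per channel after Aquantile scaling, are open to dye bias, and are compared only within a probe. Both are shown in the plots by array and by animal.

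**Figure D2:**
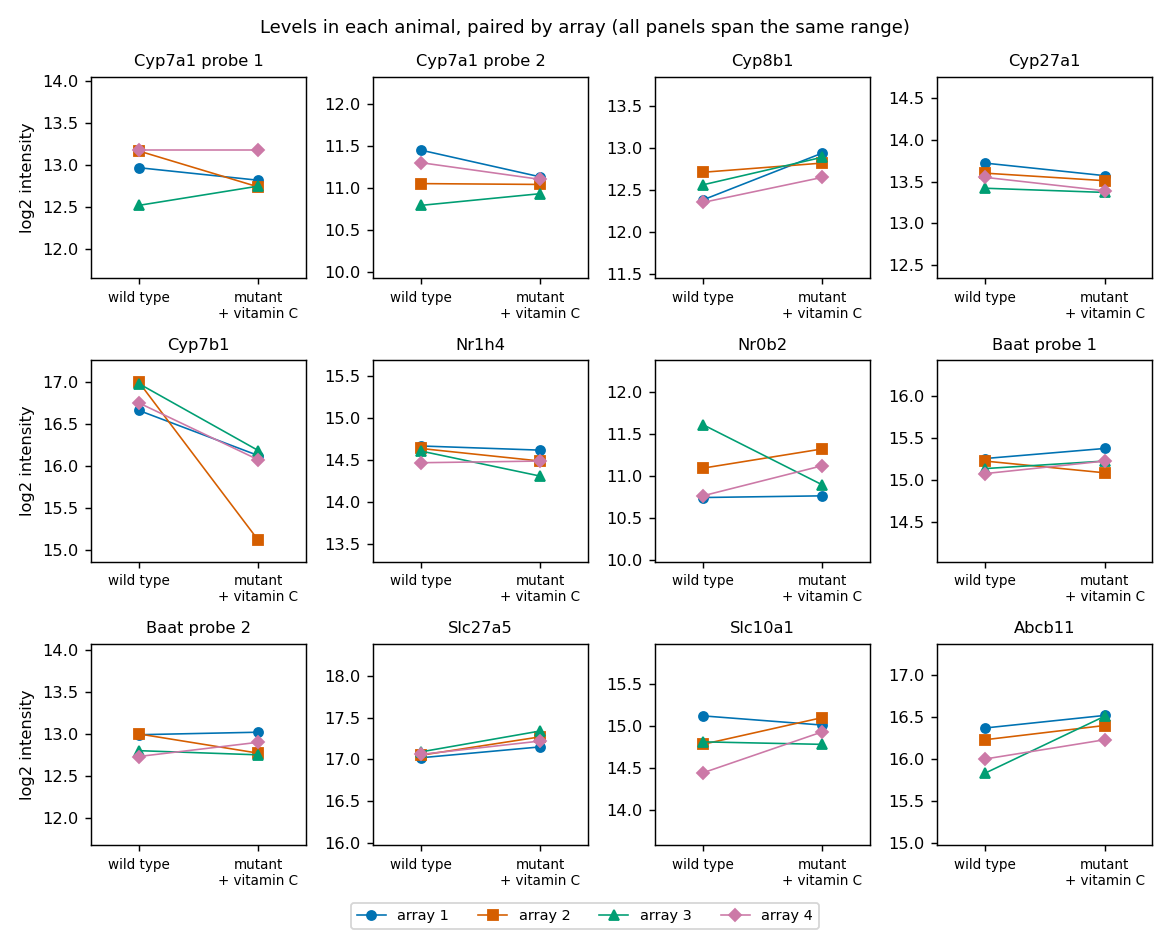
Log2 intensity of each probe in each animal, with the wild type on the left, the treated mutant on the right, and a line joining the animals hybridised to the same array. The axes differ in height but all span the same range. Cyp7b1 and Slc27a5 are the 2 of 12 probes whose groups do not overlap, beside 7.19% of all kept probes.

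Cyp7a1 is the rate-limiting enzyme of the classical route. Its probe 1 read 12.82, 12.74, 12.75 and 13.18 in the mutants of arrays 1 to 4 and 12.97, 13.17, 12.52 and 13.18 in the wild types. Probe 2 read 11.13, 11.04, 10.93 and 11.10 in the mutants and 11.45, 11.05, 10.79 and 11.30 in the wild types. The groups overlapped on both probes, and on both the lowest animal of all 8 was the wild type of array 3. The mean ratio was -0.09 ± 0.28 (SD, n = 4) on probe 1, with an interval from -0.32 to 0.15 (limma adjusted p = 0.59), and -0.10 ± 0.21 on probe 2, with an interval from -0.29 to 0.09 (adjusted p = 0.42). Both probes had a positive ratio on array 3, at 0.23 and 0.14, and disagreed most on array 2, at -0.43 and -0.01. As folds, the intervals ran from 0.801 to 1.11 on probe 1 and from 0.819 to 1.06 on probe 2, so smaller differences in either direction were not resolved.

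Cyp8b1 hydroxylates the intermediate that becomes cholic acid, and the enzyme is known to be repressed through FXR and SHP. It read 12.94, 12.82, 12.89 and 12.65 in the mutants and 12.38, 12.71, 12.56 and 12.35 in the wild types. Within every array the mutant was above the wild type, although the groups overlapped because the lowest mutant, on array 4, lay below the highest wild type, on array 2. The ratios were 0.56, 0.11, 0.33 and 0.31, with a mean of 0.33 ± 0.18 (SD, n = 4), an interval from 0.15 to 0.50 and a limma adjusted p of 0.0351. Without array 1, 2, 3 or 4 the mean was 0.25, 0.40, 0.32 and 0.33, and the call was lost each time, with an adjusted p from 0.0648 to 0.0898. With Agilent's processed signals it was 0.23 (adjusted p = 0.179).

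In the alternative route, Cyp27a1, the mitochondrial sterol side-chain hydroxylase, had the smallest spread of the 12 probes. It read 13.57, 13.51, 13.37 and 13.39 in the mutants and 13.72, 13.60, 13.42 and 13.55 in the wild types. Every mutant was a little below the wild type of its array, and the groups overlapped. The mean ratio was -0.11 ± 0.05 (SD, n = 4), from -0.16 to -0.05, and its interval from -0.22 to -0.01 left out 0, but it did not pass after adjustment (limma adjusted p = 0.136). With median centring in place of loess the ratio was 0.05.

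Cyp7b1 acts after Cyp27a1 on oxysterols and also hydroxylates steroids. It read 16.12, 15.11, 16.18 and 16.07 in the mutants and 16.66, 17.00, 16.98 and 16.75 in the wild types. All 4 mutants lay below all 4 wild types, with the mutant of array 2 far below the other 3, and 7.19% of all kept probes had groups that did not overlap. The ratios were -0.54, -1.89, -0.80 and -0.68, and the mean log2 ratio was -0.98 ± 0.62 (SD, n = 4; interval -1.47 to -0.49; limma adjusted p = 0.031). Without array 2 the mean was -0.67 and passed (adjusted p = 0.048). Without array 1, 3 or 4 it was -1.12, -1.04 and -1.08, with an adjusted p of 0.0559, 0.0608 and 0.0597. With median centring the ratio was -0.50 and the call was lost (adjusted p = 0.11).

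Nr1h4 encodes FXR, the receptor that senses bile acids. It read 14.62, 14.49, 14.31 and 14.49 in the mutants and 14.67, 14.64, 14.61 and 14.47 in the wild types, and the groups overlapped. The mean ratio was -0.12 ± 0.14 (SD, n = 4), with an interval from -0.27 to 0.02 (limma adjusted p = 0.208), and with median centring it was 0.15. Nr0b2, the FXR target that encodes SHP, read 10.76, 11.32, 10.89 and 11.12 in the mutants and 10.74, 11.09, 11.61 and 10.76 in the wild types. The highest of the 8 animals was the wild type of array 3, the animal with the lowest Cyp7a1 reading on both probes. These readings of a single animal were set side by side after they were seen, and a link between them was not tested. The Nr0b2 ratios of 0.02, 0.23, -0.73 and 0.37 gave a mean of -0.03 ± 0.49 (interval -0.42 to 0.36; adjusted p = 0.922), and without array 3 the mean was 0.20 (adjusted p = 0.14). Nr0b2 was also the dimmest of the 12 probes, at the 73.7th percentile of brightness.

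Slc27a5 joins bile acids to coenzyme A, and Baat then transfers them to taurine or glycine. Slc27a5 was the brightest of the 12 probes, at the 99.7th percentile, and read 17.15, 17.27, 17.34 and 17.22 in the mutants and 17.02, 17.05, 17.09 and 17.06 in the wild types. All 4 mutants were above all 4 wild types, and 7.19% of all kept probes had groups that did not overlap. The ratios of 0.13, 0.22, 0.26 and 0.16 gave a mean of 0.19 ± 0.06 (SD, n = 4; interval 0.09 to 0.30; limma adjusted p = 0.039). This call depended on the scaling: the mean was 0.77 with median centring and -0.04 with Agilent's processed signals (adjusted p = 0.744). It was lost without any 1 of the arrays (adjusted p from 0.0794 to 0.123) and with trended and robust moderation (0.0877).

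Baat probe 1 (A_51_P245123) read 15.38, 15.09, 15.23 and 15.23 in the mutants and 15.26, 15.23, 15.14 and 15.08 in the wild types. Probe 2 (A_52_P43150) read 13.02, 12.77, 12.75 and 12.90 in the mutants and 12.99, 13.00, 12.80 and 12.73 in the wild types. The groups overlapped on both probes, and on both the mutant was below the wild type on array 2 and above it on arrays 1 and 4. Mean ratios were 0.06 ± 0.13 (interval -0.08 to 0.20; limma adjusted p = 0.552) and -0.02 ± 0.16 (interval -0.18 to 0.14; adjusted p = 0.875). With median centring probe 1 was at 0.40 and passed (adjusted p = 0.0143), while probe 2 was at 0.10 and did not (adjusted p = 0.395).

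Abcb11, the bile salt export pump of the canalicular membrane, read 16.52, 16.40, 16.51 and 16.23 in the mutants and 16.37, 16.23, 15.83 and 16.00 in the wild types. Each mutant was above the wild type of its array, and the groups overlapped. The ratios were 0.14, 0.18, 0.68 and 0.22, and the high value on array 3 came with the lowest of the 8 readings, again in the wild type of that array. The mean of 0.30 ± 0.25 (SD, n = 4; interval 0.09 to 0.52) did not pass after adjustment (limma adjusted p = 0.0698), and with median centring it was 0.78 and passed (adjusted p = 0.00686). It was 0.18 without array 3 (adjusted p = 0.0875) and 0.10 with Agilent's processed signals (adjusted p = 0.555).

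Slc10a1 (NTCP), the sodium-dependent uptake carrier of the basolateral membrane, read 15.01, 15.10, 14.78 and 14.93 in the mutants and 15.12, 14.78, 14.81 and 14.44 in the wild types. The groups overlapped, with the lowest reading in the wild type of array 4. The ratios of -0.11, 0.32, -0.03 and 0.48 had a mean of 0.17 ± 0.28 (interval -0.07 to 0.41; limma adjusted p = 0.297). The sign of the uptake carrier's ratio differed between arrays, while that of the export pump was positive on all 4.

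Across the members, 5 of 12 probes had 1 sign on all 4 arrays, a share of 41.7% against 40.3% of all kept probes. Their median ratio was -0.02 against 0.00 for all kept probes, and their median absolute ratio was 0.12 against 0.09. The SD over arrays had a median of 0.20 for the members and 0.10 for all kept probes, and ran from 0.05 for Cyp27a1 to 0.62 for Cyp7b1. In the authors' deposited table, 2 of the 12 probes had an adjusted p under 0.05, Cyp8b1 at 0.0492 and Cyp7b1 at 0.0427, with Slc27a5 at 0.0675. When the pairing of the channels within an array was not modelled, 0 of the 12 probes passed limma (4 had an unadjusted p under 0.05), against 26 of all kept probes, with Cyp7b1 at an adjusted p of 0.24, Cyp8b1 at 0.361 and Slc27a5 at 0.405. How many of all kept probes had an unadjusted p under 0.05 in that fit was not counted.

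The members are bright, and their ratios depended on how bright probes were centred. Median centring raised all 12 mean ratios above those from loess, by 0.06 to 0.58 with a median of 0.22, and raised probes above the 90th percentile of brightness by a median of 0.19. Over the whole array, loess gave 2421 higher and 2655 lower calls, a share of 47.7% higher, and median centring gave 4292 and 3011, a share of 58.8%. In the plot of alternatives, Cyp7b1 was the 1 called probe that stayed below 0 and Cyp8b1 the 1 that stayed above 0 under all 15 settings tried; Slc27a5 did not keep its sign.

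**Figure D3:**
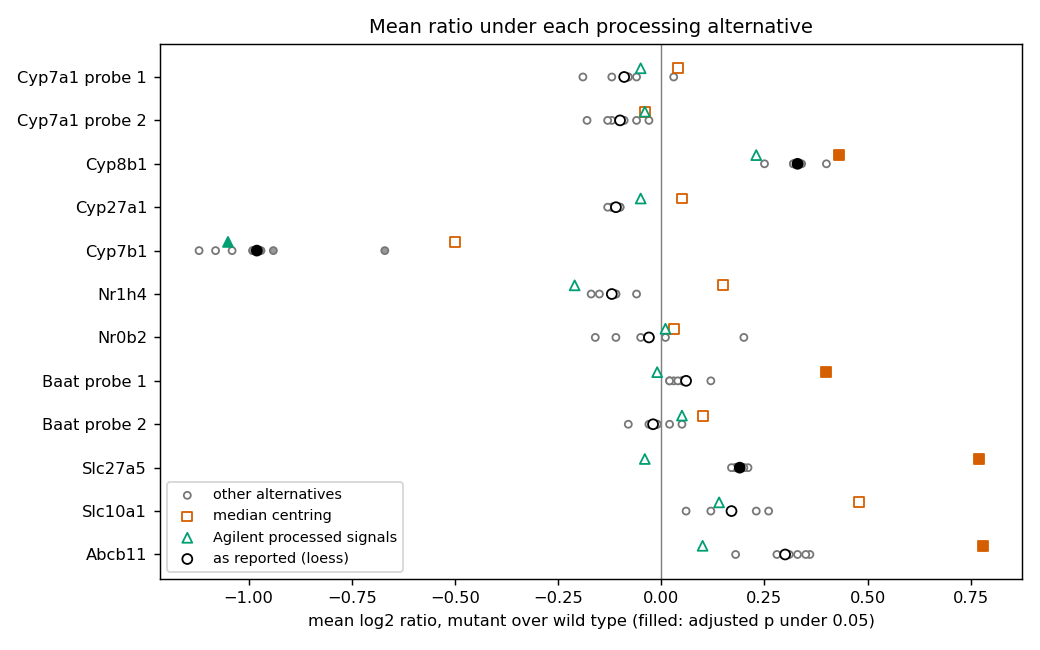
Mean log2 ratio of each probe as reported with loess (black circles), with median centring (orange squares), with Agilent's processed signals (green triangles) and under 13 other settings (grey circles), filled where the adjusted p was under 0.05. Median centring lies to the right of loess for every probe, by 0.58 for Slc27a5.

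Other genes of the pathway were described from 5 lists, with the brightest kept probe standing for a gene. A gene counted as not called can have another probe that was called, as in 2 genes chosen after their values were seen. Atp8b1, at -0.19, had others at -0.44, -0.21 and 0.31, all called, and Rora, at -0.13, had 1 other called lower. Of 82 genes, 79 were measured, and 6 were higher, 7 lower and 66 not called; 16.5% were called, against 13.6% of all 20666 named genes. Named genes are the called ones of smallest p, up to 2 in each direction per list; any other is said to have been chosen after its value was seen. All named list genes have n = 4 and limma adjusted p-values. Where counts at an unadjusted limma p under 0.05 are given, the share of all genes under that threshold was not counted. Those counts describe the lists only.

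**Figure D4:**
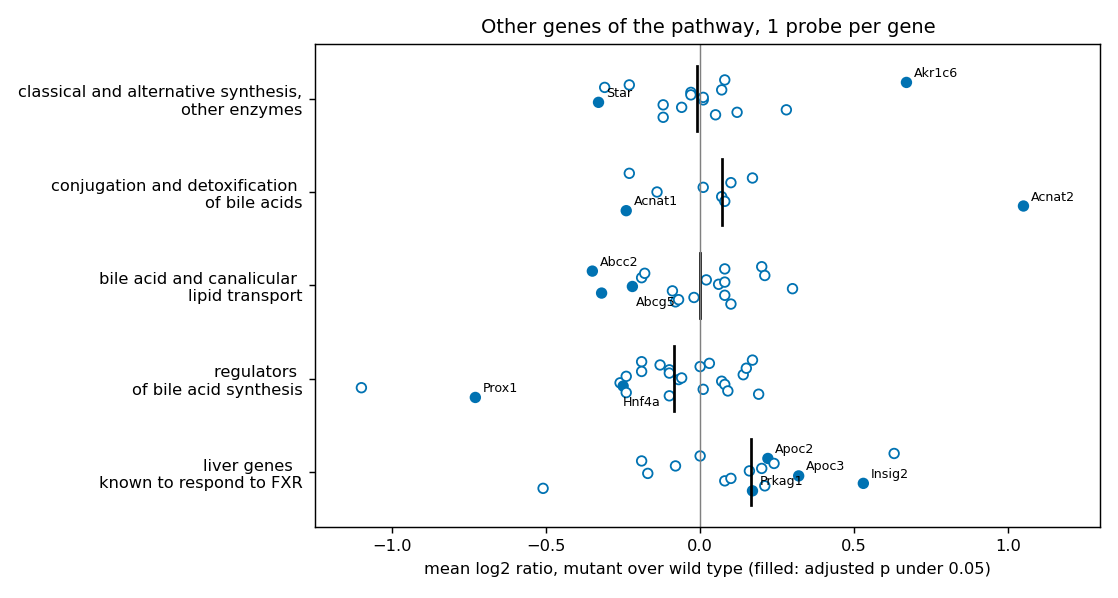
Mean log2 ratio of the genes in 5 lists of the bile acid pathway, 1 point per measured gene, filled where the adjusted p was under 0.05, with the list median as a black bar. Filled points are labelled where the text names the gene. The list of genes known to respond to FXR holds 4 filled points, all above 0, a share of 25% beside 13.6% of all named genes.

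Of the 16 other synthesis enzymes and sterol carriers, 1 was higher and 1 lower, with a median ratio of -0.01 against 0.01 for all named genes. Akr1c6, an aldo-keto reductase, had ratios of 0.54, 0.45, 0.59 and 1.10 and rose by 0.67 ± 0.29 (SD; adjusted p = 0.0169). Star, which carries cholesterol into mitochondria, fell by 0.33 (SD 0.06; adjusted p = 0.0138), but its other probe was at -0.00 (adjusted p = 0.979). The Akr1c6 probe was not called without array 2 (adjusted p = 0.0615) or with Agilent's processed signals (0.0782), and Star was not called without array 2 (adjusted p = 0.0624).

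Of the conjugation and detoxification list, 9 of 10 genes were measured, 1 higher and 1 lower, with a median of 0.07. The acyltransferases Acnat2 and Acnat1, relatives of Baat, went in opposite directions. Acnat2 had ratios of 1.14, 1.64, 1.21 and 0.22 and rose by 1.05 ± 0.60 (adjusted p = 0.0256), with the groups overlapping. It was not called without array 1, 2 or 3 (adjusted p = 0.0739, 0.0888 and 0.0618) or with Agilent's processed signals (0.0506). Acnat1 fell by 0.24 (SD 0.10; adjusted p = 0.0324), a call lost when any array was left out, and with median centring it was at -0.03 (adjusted p = 0.652). These genes are close in sequence, and cross-hybridisation between them was not tested.

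Of the 18 transport genes, 0 were higher and 3 lower, with a median of 0.00; at an unadjusted limma p under 0.05 the counts were 2 higher and 5 lower, and with median centring 3 were higher and 1 lower. Abcc2, the canalicular pump of conjugated bilirubin and divalent bile acids, fell by 0.35 (SD 0.10; adjusted p = 0.0156), with ratios of -0.28, -0.37, -0.27 and -0.49. The call was lost with median centring, at -0.10 (adjusted p = 0.148), with Agilent's processed signals (0.0819) and without array 2 (0.0692). Abcg5, a canalicular sterol transporter chosen after its value was seen, was at -0.22 ± 0.11 (adjusted p = 0.0421) and at 0.07 with median centring, and it was lost when any array was left out.

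Of the regulators, 24 of 26 were measured, 0 were higher and 2 lower by limma, with a median of -0.09. At an unadjusted p under 0.05 the counts were 3 higher and 9 lower, and with median centring 5 were higher and 1 lower. Prox1, a homeobox corepressor, had ratios of -0.18, -1.27, -0.74 and -0.73 and a mean of -0.73 ± 0.45 (adjusted p = 0.0302), with its 2 other probes at -0.04 and -0.11; without array 2, 3 or 4 it was not called (adjusted p = 0.0837, 0.069 and 0.0767). Hnf4a, a nuclear receptor that drives hepatocyte genes, was at -0.25 ± 0.10 (adjusted p = 0.0288), with its 2 other probes at -0.01 and -0.15, and was lost when any array was left out. Averaged over their probes, both calls were lost, Prox1 at -0.29 (adjusted p = 0.0652) and Hnf4a at -0.14 (adjusted p = 0.0906). The lowest ratio of the list, chosen after its value was seen, was that of Fgf21, a fasting-induced hormone, at -1.10 ± 1.13, which did not pass (adjusted p = 0.095) and was at -2.77 on array 3. The other Fgf21 probe was at -1.26 and did not pass either.

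Of 16 liver genes known to respond to FXR, 4 were higher and 0 lower by limma, with a median ratio of 0.17. The share called was 25%, beside 13.6% of all named genes and 22.0% of probes above the 90th percentile of brightness. At an unadjusted p under 0.05 the counts were 6 higher and 3 lower. Insig2, which retains the sterol sensor SCAP in the endoplasmic reticulum, rose by 0.53 ± 0.21 (adjusted p = 0.0158), and its other probe rose by 0.45 (adjusted p = 0.0417). Apoc3, an apolipoprotein that inhibits lipoprotein lipase, rose by 0.32 ± 0.15 (adjusted p = 0.0282), and its other probe by 0.34 (adjusted p = 0.0348). Insig2 was not called without array 1 (adjusted p = 0.0522) or 2 (0.0743), and Apoc3 was not called without array 2, 3 or 4 (0.102, 0.0683 and 0.0859) or with Agilent's processed signals, at 0.16 (0.199). FXR is known to raise Insig2 and to lower Apoc3. The other called genes, chosen after their values were seen, were Apoc2, an activator of that lipase, at 0.22 ± 0.09 (adjusted p = 0.0393) and Prkag1 at 0.17 ± 0.05 (adjusted p = 0.0481), whose other probe was at -0.06, both lost when any array was left out. Over the list, leaving out 1 array gave 0 to 1 higher and 0 to 1 lower calls. With Agilent's processed signals the list had 1 higher and 1 lower call and a median of 0.02, and with median centring 11 higher and a median of 0.37.

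Markers of liver cells and of hepatocyte zones were measured on the same arrays, each by its brightest kept probe. Other probes of a called marker did not always follow it, as in 3 genes chosen after their values were seen. Sox9, at -0.58, had others at 0.01 and -0.23 that were not called. Tbx3, at -0.90, had another at 0.17 that was called higher, while the other Vwf probe was called lower, at -0.37, as the first was. All 10 measured hepatocyte genes, albumin among them, were well above background on all arrays. The hepatocyte list had 4 of 10 genes higher and 1 lower, a median ratio of 0.08 and 50% called, beside 13.6% of all named genes and 22.0% of bright probes. Its summed level, which the brightest genes set, the log2 of the summed intensities, ran from 20.29 to 20.43 in the mutants and from 19.84 to 20.09 in the wild types. Periportal genes had 2 of 9 higher and 1 lower (19.51 to 19.66 against 19.03 to 19.62), and pericentral genes had 0 of 10 higher and 4 lower (18.42 to 18.57 against 18.60 to 18.79). Summed levels did not overlap between groups for hepatocyte genes, with the sum higher in the mutants. They did not overlap either for pericentral genes or for the sinusoidal endothelial and cholangiocyte genes given next, with each sum lower in the mutants. Of the genes in these 3 sums, 6 of 10 pericentral, 8 of 12 endothelial and 10 of 12 cholangiocyte genes were not called. The called shares were 40.0%, 33.3% and 16.7%, beside 13.6% of all named genes. How often sums of other gene sets do not overlap was not counted. The part of these lists in the members' results was not tested.

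Sinusoidal endothelial genes had 0 of 12 higher and 4 lower (15.86 to 15.96 against 16.03 to 16.30) and cholangiocyte genes 0 of 12 higher and 2 lower (15.16 to 15.42 against 15.44 to 15.51). Stellate cell genes had 2 of 12 lower (16.44 to 16.55 against 16.44 to 16.73), lymphocyte genes 1 of 12 lower (14.13 to 14.45 against 14.10 to 14.43), and of 12 Kupffer cell genes 0 passed limma with or without adjustment (16.30 to 16.73 against 16.40 to 17.00). Acute phase genes had 0 of 18 higher and 5 lower, with a median ratio of -0.62. The share of all named genes with an unadjusted limma p under 0.05 was not counted, so the next counts have no background beside them. At an unadjusted p under 0.05, 0 pericentral, endothelial, cholangiocyte or stellate genes were higher and 8, 5, 3 and 2 were lower. At that threshold 3 lymphocyte genes were higher and 1 lower, and 1 acute phase gene was higher and 8 were lower. Their summed level was 21.78 in the wild type of array 4 against 19.46, 19.72 and 19.92 in the other wild types and 19.29 to 19.49 in the mutants. Without array 4 the member ratios were -1.08 for Cyp7b1 (adjusted p = 0.0597), 0.33 for Cyp8b1 (0.0898) and 0.20 for Slc27a5 (0.106), so that all 3 calls were lost. The loss was not particular to array 4. All 3 calls were also lost without array 1 or array 3, and all but that of Cyp7b1 without array 2.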

How the data were processed

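Liver RNA of 4 vitamin C-treated Wrn mutants (Cy5) and 4 untreated wild types (Cy3) was compared on 4 arrays. The deposited scanner files come from Agilent's Feature Extraction (version 10.5.1.1) and an mm9-annotated design, per the file headers. The median intensity and local background intensity of each spot, as scanned, are deposited in them. Also in them is Agilent's log10 ratio of red over green, deposited after background subtraction and dye normalization, as the headers state. In the authors' deposited table are log2 ratios, a mean log2 ratio and adjusted p-values for 43379 spots. The submitters' processing notes name limma.

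Here median intensities were corrected with normexp (offset 50) and normalized by loess within arrays (control spots weighted 0), using limma 3.58.1 in R 4.3.3. Mean intensities were not used because the files used here hold medians. Spots of a probe were averaged. Probes well above background on at least 3 arrays in either channel, with a ratio on at least 3 arrays, were kept (39080 of 41174). lmFit and eBayes tested the mean ratio against 0, and p-values were adjusted by Benjamini-Hochberg over all kept probes. Ratios were missing for 153 probe-array pairs, none of them a member. Symbols of other genes came from RefSeq by transcript accession (67.2% of probes), symbol (13.6%), older symbol (1.10%) or the deposited symbol (3.13%), and 15.0% had no name.

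The members, the gene lists and the rule for naming genes were chosen with earlier results of these data known. The rule named every member on every probe and, per pathway list, up to 2 called genes of smallest p in each direction; 1 gene that it selects is not reported here. Alternatives covered background correction, normalization, the filter, moderation, array weights, the pairing of channels, averaging of a gene's probes, the authors' ratios and leaving out each array. The procedure was tested on simulated data. Of the per-sample columns in the authors' table, 0 were left without a sample.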

Additional observations from a re-analysis of the deposited data

Results flagged for a closer look

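In the groups of 4 values tested for a value far from the rest, 36 groups of member levels and ratios, 2 had one; chance marks about 1 in 20 such groups. The Cyp7b1 level in the mutant of array 2 was 15.11, against 16.07 to 16.18 in the other mutants, a gap of 0.899 of the range of the group. The Abcb11 ratio on array 3 was 0.68, against 0.14 to 0.22 on the other arrays, a gap of 0.858 of the range.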

How the results depend on the processing

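Of 15 alternatives, 9 kept the call of Cyp8b1, 10 that of Cyp7b1 and 6 that of Slc27a5. The number of called members was 3 as reported, 1 with Agilent's processed signals, 0 with the pairing of channels not modelled, and 0 to 1 with 1 array left out. It was 2 with background subtraction, the authors' ratios or trended moderation, and 4 with median centring, which lost Cyp7b1 and added Baat probe 1 and Abcb11. With Agilent's signals, unmodelled pairing and 1 array left out, the 13 called list genes became 3, 0 and 0 to 8, and 31 with median centring. In the same order the 5076 called probes became 1196, 26 and 160 to 2270, with the lowest count without array 2, and 2297 of 20666 genes when each gene's probes were averaged. Signs turned with Agilent's processed signals for Nr0b2 (0.01), Baat probe 1 (-0.01), Baat probe 2 (0.05) and Slc27a5 (-0.04), and with median centring for Cyp7a1 probe 1 (0.04), Cyp27a1 (0.05), Nr1h4 (0.15), Nr0b2 (0.03) and Baat probe 2 (0.10). They also turned with array weights for Nr0b2 (0.01). The mean of the Baat probes was 0.02, a turned sign for probe 2 (-0.02) but not for probe 1 (0.06). Leaving out 1 array gave -0.19 to 0.03 for Cyp7a1 probe 1, -0.16 to 0.20 for Nr0b2 and -0.08 to 0.05 for Baat probe 2. Fewer samples or tested genes go with the leave-one-out counts and the count by gene; the cause of the other changes was not tested. Each ratio pairs the animals of an array, which share a hybridisation, and no further replicate block could be fitted because each number labels 1 array. The number of arrays limits the precision.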
